A study of Mus musculus with 11 samples.

Results

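The 10 genes of lytic cell death followed here in the mouse retina, with and without an inherited photoreceptor degeneration, were Nlrp3, Pycard, Casp1, Casp4, Gsdmd, Il1b and Il18 of the inflammasome and pyroptosis pathway, and Ripk1, Ripk3 and Mlkl of necroptosis. The members were chosen by name, as the rows of the count table whose Ensembl identifiers carry these symbols, and 10 of 10 were found among the 37991 genes of the table. Each of the 11 libraries came from the retina of the right eye of 1 mouse, taken on postnatal day 24. The wild-type mice were C57Bl/6J, and the rd10 mice were of the strain labelled B6.CXB1-Pde6brd10/Jrd10, which carries a mutant allele of the rod phosphodiesterase gene Pde6b. Each genotype received intraperitoneal injections every day from postnatal day 9 to day 24, either of saline or of GSK2879552 (GSK below) at 4.2 mg/kg. GSK2879552 is an inhibitor of the histone demethylase LSD1, and the study asked whether inhibitors of this kind protect rods. The 4 groups were wild-type saline (n = 2), wild-type GSK (n = 3), rd10 saline (n = 3) and rd10 GSK (n = 3). The rd10 allele is present in every cell of the animal, and any other difference between the named strain backgrounds cannot be told apart from it. No label says whether mice shared a litter.

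An inflammasome is a protein platform assembled in the cytosol when a sensor such as NLRP3 detects danger. The adaptor ASC, encoded by Pycard, links the sensor to caspase-1, which cuts the precursors of interleukin 1 beta and interleukin 18 and the pore-forming protein gasdermin D. In mice caspase-11, encoded by Casp4, binds bacterial lipopolysaccharide directly and also cuts gasdermin D. Necroptosis is the other lytic death followed here: the kinases RIPK1 and RIPK3 form a complex below death receptors, and RIPK3 phosphorylates MLKL, which breaks the plasma membrane. In the retina the inflammasome genes are mainly known from microglia and infiltrating myeloid cells, and both pathways have been studied in photoreceptor degeneration. Most of these proteins are also controlled by cleavage or phosphorylation, which counts of messenger RNA do not measure.

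The region just before the start of transcription is shown for 3 members of the inflammasome core: Pycard, the only member called between the rd10 groups, and the neighbouring caspase genes Casp1 and Casp4, which were close to absent in wild type. The windows hold 250 bases before the RefSeq start on the GRCm38.p6 build, written 5′ to 3′ on the strand of the gene. Capitals mark matches to the searched motifs.
Pycard, chr7:127993868-127994117, minus strand: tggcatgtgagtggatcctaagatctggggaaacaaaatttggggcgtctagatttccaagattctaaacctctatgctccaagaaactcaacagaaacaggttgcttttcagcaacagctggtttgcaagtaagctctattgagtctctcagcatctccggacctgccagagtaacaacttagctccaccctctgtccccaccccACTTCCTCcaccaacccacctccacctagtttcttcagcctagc
Casp1, chr9:5298267-5298516, plus strand: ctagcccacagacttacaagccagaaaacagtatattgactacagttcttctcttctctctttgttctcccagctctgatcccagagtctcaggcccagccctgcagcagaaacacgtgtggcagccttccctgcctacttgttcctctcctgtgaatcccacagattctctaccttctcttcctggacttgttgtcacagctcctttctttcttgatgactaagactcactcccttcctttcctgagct
Casp4, chr9:5308599-5308848, plus strand: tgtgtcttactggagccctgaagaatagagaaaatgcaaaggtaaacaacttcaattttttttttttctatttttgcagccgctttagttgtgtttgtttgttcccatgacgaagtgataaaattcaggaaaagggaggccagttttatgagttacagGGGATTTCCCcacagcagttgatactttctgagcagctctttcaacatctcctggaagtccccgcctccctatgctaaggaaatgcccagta
In all, 5 motifs were searched on both strands in the 12 windows that the table holds for 9 of the 10 members; Gsdmd has no entry there. The capitals in Pycard are the reverse complement of GAGGAAGT, a core bound by the myeloid factor PU.1, and lie 44 to 37 bases before the start. That motif was found in 1 of 9 members and in 2.44% of 32851 windows of the same length from all genes. The capitals in Casp4, 92 to 83 bases before its start, match the motif of NF-kappaB (GGGA and CC with 4 free bases between), which was found in 2 of 9 members (Casp4 and Nlrp3) and in 17.6% of all windows. The gamma-activated site TTCNNNGAA was found in 1 member, Ripk1, and in 7.02% of windows. The interferon-stimulated response element (GAAA given again after 2 free bases, in 2.98% of windows) and the AP-1 site TGANTCA (6.75%) were found in 0 of 9 members. These are matches of letters, and no binding was measured.

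The libraries held 19657030 to 28053367 counts. Most members were rare: in wild-type saline 7 of 10 had fewer than 10 counts in every library. Levels are given as CPM, the count divided by the scaled library size in the usual unit of that name, with the mean ± SD of a group, and as raw counts where these are low. The rod markers that define the labelled tissue were present in every library, with a summed level of 58281 to 63454 CPM in the wild-type libraries, 8414 to 10314 in rd10 saline and 25674 to 48662 in rd10 GSK. Pde6b itself was at 332 to 422 CPM in rd10 saline and 991 to 1757 in rd10 GSK. The summed lens transcripts reached 651 CPM in replicate 2 of wild-type saline and 6668 in replicate 2 of rd10 GSK, against at most 9.23 elsewhere, and each comparison was repeated without these 2 libraries. That repeat keeps 1 wild-type saline library, so the loss of lens tissue and the loss of a replicate cannot be told apart in it. Xist, expressed in female cells, was at 0.338 CPM or less in 4 libraries (wild-type GSK 2, rd10 saline 2, rd10 GSK 1 and 3) and at 780 or more in the other 7, and its part in the results was not tested.

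Between the saline groups, 8 of 10 members were higher in rd10 and 0 were lower, in edgeR's quasi-likelihood test with Benjamini-Hochberg adjusted p under 0.05 over 17099 genes. Of all genes tested, 21.5% were called higher and 40.5% were called in either direction. The median log2 change of the members was 2.97 with count ratios in place of fitted values where a group had 1 to 3 counts. It was 2.92 with fitted values alone, against 0.02 over all genes, also fitted. Nlrp3, Casp1, Casp4, Il1b, Ripk3 and Mlkl passed the filter on low counts (0.433 CPM in at least 2 libraries) only through rd10 libraries. They could therefore only have been found higher there. The count of calls and the median describe the list without supporting a statement about it, here and under GSK below. In 9 of 10 members every rd10 saline library lay above every wild-type library, Il18 being the exception. The same limit applies to this separation, and the share of all genes that show it was not computed. Against wild-type GSK retinas, rd10 GSK retinas were also higher in 8 members and lower in 0, where 15.4% of all genes were called higher (median log2 change 1.83 for the members and 0.01 for all genes). In these bulk samples, fewer cells of a type and less RNA per cell cannot be told apart.

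**Figure D1:**
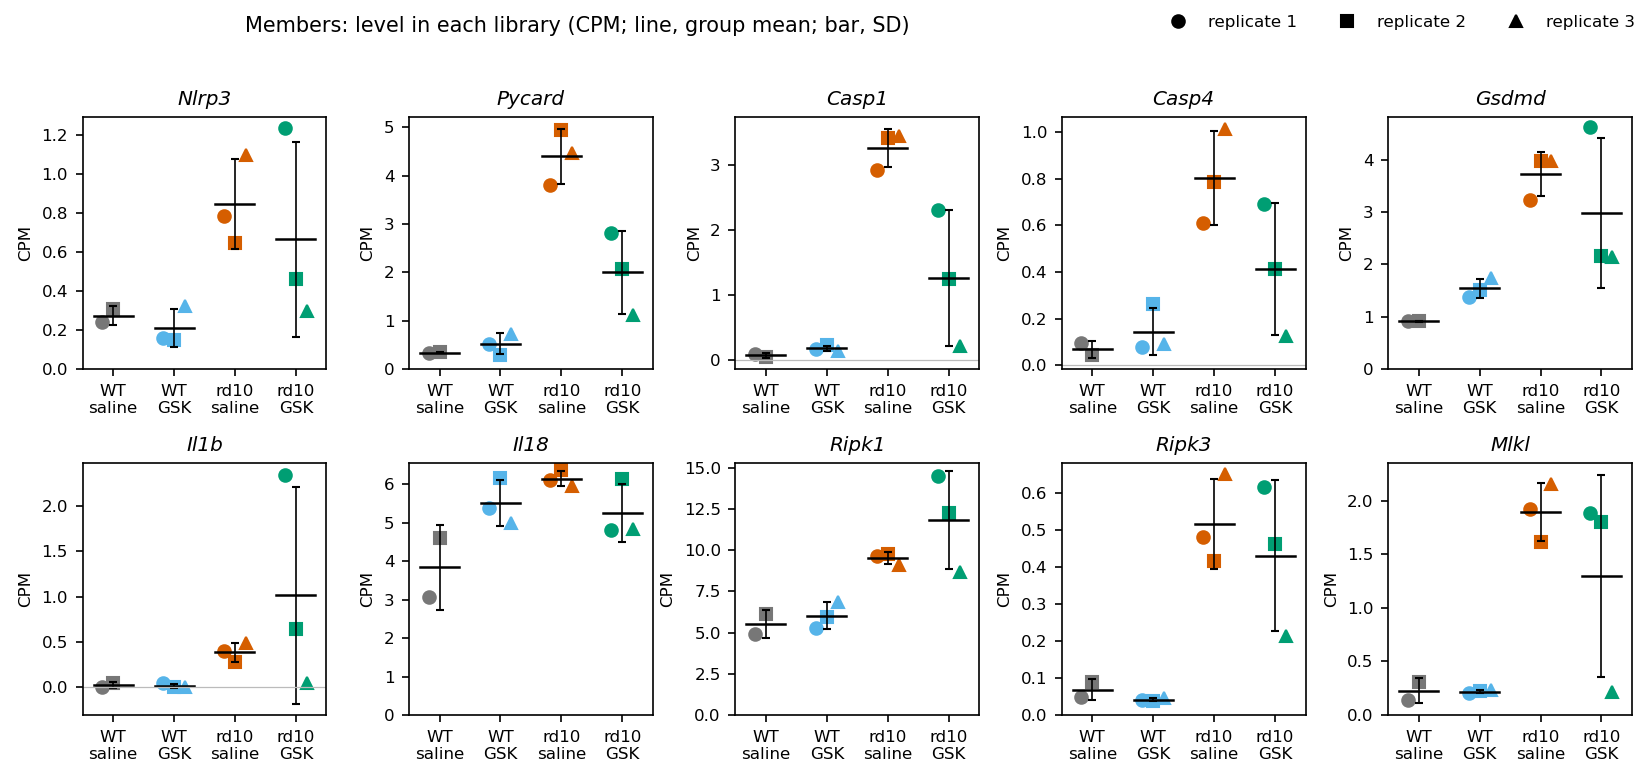
Level of each of the 10 members in every library (y axis, CPM, a separate linear scale per panel; x axis, the 4 groups; symbols, replicate numbers; line, group mean; bar, SD). Every rd10 saline point lies above every wild-type point except for Il18, and the rd10 GSK points are spread widely for Casp1, Il1b and Mlkl.

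Among the inflammasome core genes the caspases were close to absent in wild-type retina and clearly counted in rd10. Casp1 (ENSMUSG00000025888), the protease that matures the cytokines, had 2 and 1 counts in wild-type saline, 4, 6 and 3 in wild-type GSK, 67, 74 and 85 in rd10 saline, and 60, 27 and 5 in rd10 GSK. All rd10 saline libraries were thus far above wild type, while rd10 GSK ran from nearly that level down to the wild-type range. Scaled to library size, the 226 counts of Casp1 in rd10 saline against 3 in wild-type saline gave a ratio of 47.5 (exact 95% counting interval 16.1 to 232, edgeR adjusted p = 0.00113). Casp4 (ENSMUSG00000033538), the lipopolysaccharide-binding caspase-11, had 2 and 1 counts in wild-type saline, 2, 7 and 2 in wild-type GSK, 14, 17 and 25 in rd10 saline, and 18, 9 and 3 in rd10 GSK. Its ratio between the saline groups was 11.8 (56 against 3 counts, interval 3.83 to 58.8, edgeR adjusted p = 0.00494). Leaving out replicate 2 of wild-type saline ended this call (edgeR adjusted p = 0.0597). Without replicate 1 of wild-type saline, which leaves 1 count, the ratio became 74.3 for Casp1 and 18.4 for Casp4. The counting intervals cover counting error only, not the spread between mice.

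Pycard (ENSMUSG00000030793), the adaptor ASC, was the member with the clearest change in both directions. It was at 0.335 and 0.351 CPM in wild-type saline, 0.526, 0.300 and 0.733 in wild-type GSK, 3.80, 4.94 and 4.46 in rd10 saline, and 2.81, 2.08 and 1.11 in rd10 GSK. The 3 rd10 GSK libraries lay between the groups, above every wild-type library and below every rd10 saline library. The rise between the saline groups was 3.66 ± 0.45 (log2 fold change ± SE, edgeR adjusted p = 8.36e-05), and it was called under each of the 20 alternative settings. Nlrp3 (ENSMUSG00000032691), the sensor, had 5 and 7 counts in wild-type saline, 4, 4 and 7 in wild-type GSK, 18, 14 and 27 in rd10 saline, and 32, 10 and 7 in rd10 GSK. Its rd10 saline libraries were all above wild type, but the difference of 1.61 ± 0.61 missed the threshold (edgeR adjusted p = 0.0537). It passed when rd10 GSK replicate 1 or replicate 3 was left out (edgeR adjusted p = 0.0110 and 0.0249), although neither library belongs to the comparison, since all groups share 1 estimate of spread. The difference also passed when only the saline groups were fitted (1.60, edgeR adjusted p = 0.0143) and without a filter on low counts (1.60, 0.0490).

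Gsdmd (ENSMUSG00000022575), the pore-forming substrate of these caspases, was measured in every group, at 0.916 ± 0.0092 CPM in wild-type saline (n = 2), 1.54 ± 0.187 in wild-type GSK, 3.73 ± 0.428 in saline-treated rd10 and 2.98 ± 1.43 in rd10 GSK (n = 3 each). It rose by 2.02 ± 0.35 in rd10 saline against wild-type saline (log2, edgeR adjusted p = 0.000839), a call that held under every alternative setting. Il18 (ENSMUSG00000039217), the precursor of interleukin 18, was already well counted in wild type. It stood at 3.06 and 4.61 CPM in wild-type saline, 5.38, 6.16 and 5.00 in wild-type GSK, 6.11, 6.37 and 5.97 in rd10 saline, and 4.82, 6.14 and 4.83 in rd10 GSK. Its difference between the saline groups was small (0.68 ± 0.19, edgeR adjusted p = 0.0131), the wild-type GSK libraries overlapped rd10 saline, and leaving out replicate 1 of wild-type saline ended the call (0.41, edgeR adjusted p = 0.155). Bco2 overlaps Il18 on the opposite strand and had 33 to 60 counts per library, against 64 to 164 for Il18.

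Il1b (ENSMUSG00000027398), the precursor of interleukin 1 beta, had 0 and 1 counts in wild-type saline, 1, 0 and 0 in wild-type GSK, 9, 6 and 12 in rd10 saline, and 61, 14 and 1 in rd10 GSK. Every rd10 saline library was thus above wild type at a low level, and rd10 GSK held both the highest value of the data and a value within the wild-type range. The saline groups differed in counts by a ratio of 17.0 (27 against 1 counts, exact interval 2.81 to 697), which missed the threshold (edgeR adjusted p = 0.155). It passed without rd10 GSK replicate 1 (edgeR adjusted p = 0.0292) or replicate 3 (0.0233), and the ratio was 8.88 without replicate 1 of wild-type saline. Per kilobase of exon, Il18 was the highest member in rd10 saline at 5.96 CPM per kilobase, followed by Casp1 at 2.18 and Gsdmd at 1.57. Il1b, Nlrp3, Casp4 and Ripk3 were the lowest, at 0.202 to 0.225. In wild-type saline the order on this per-length scale was led by Il18 (3.72), Ripk1 (0.661) and Gsdmd (0.385), and the other 7 members were at 0.0979 or less. The lengths merge all annotated exons of a gene (1031 bases for Il18, 3800 for Pycard and 8344 for Ripk1), so these orders depend on the annotation. By CPM alone, rd10 saline was led by Ripk1 (9.51), Il18 (6.15) and Pycard (4.40).

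The 3 necroptosis members differed in their starting level. Ripk1 (ENSMUSG00000021408), the kinase recruited to death receptors, was abundant throughout, at 4.93 and 6.11 CPM in wild-type saline, 5.30, 5.93 and 6.88 in wild-type GSK, 9.65, 9.78 and 9.09 in rd10 saline, and 14.5, 12.3 and 8.67 in rd10 GSK. All 6 rd10 libraries lay above all 5 wild-type libraries. The rise between the saline groups was modest (0.78 ± 0.20, edgeR adjusted p = 0.00870) and did not pass without replicate 1 of wild-type saline (0.64, edgeR adjusted p = 0.0962). Serpinb6a, which overlaps Ripk1 on the opposite strand, had 164 to 283 counts in wild type, 386 to 420 in rd10 saline and 546, 354 and 285 in rd10 GSK. Since no source used here gives the strand setting of the counting, reads of the 2 genes cannot be told apart.

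Ripk3 (ENSMUSG00000022221), the kinase that activates MLKL, had 1 and 2 counts in wild-type saline, 1, 1 and 1 in wild-type GSK, 11, 9 and 16 in rd10 saline, and 16, 10 and 5 in rd10 GSK. Wild type and rd10 did not overlap. The saline ratio was 7.57 (36 against 3 counts, interval 2.39 to 38.4, edgeR adjusted p = 0.00455), and rd10 GSK exceeded wild-type GSK by a ratio of 10.6 (31 against 3 counts, interval 3.32 to 54.4, edgeR adjusted p = 0.00379). Mlkl (ENSMUSG00000012519), the executor, had 3 and 7 counts in wild-type saline, 5, 6 and 5 in wild-type GSK, 44, 35 and 53 in rd10 saline, and 49, 39 and 5 in rd10 GSK. Replicates 1 and 2 of rd10 GSK were as high as rd10 saline, and replicate 3 was at the wild-type level. Mlkl rose by 3.03 ± 0.76 between the saline groups (edgeR adjusted p = 0.00873), which did not pass once replicate 1 of wild-type saline was left out (2.60, edgeR adjusted p = 0.0818).

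Within rd10, 1 of 10 members fell and 0 rose with GSK, where 15.2% of all genes were called lower and 17.6% higher (edgeR adjusted p under 0.05). Among all these calls 53.6% were higher, a share that scaling to inner retina neurons moved to 95.8%. The member was Pycard (-1.13 ± 0.30, edgeR adjusted p = 0.0142), with group means of 4.40 ± 0.572 CPM in rd10 saline and 2.00 ± 0.854 in rd10 GSK. Its call was lost without the lens-bearing libraries (-1.14, edgeR adjusted p = 0.0609) and when libraries were scaled to inner retina neurons instead of all genes (-0.77, edgeR adjusted p = 0.0558). Casp1 was lower in each rd10 GSK library than in each rd10 saline library, yet its difference of -1.36 ± 0.51 did not pass (edgeR adjusted p = 0.0641). It passed with limma-voom (-1.86, adjusted p = 0.0213) and without rd10 GSK replicate 1 (-2.17, edgeR adjusted p = 0.00253) or replicate 3 (-0.86, edgeR adjusted p = 0.0266). The other differences were -0.94 ± 0.49 for Casp4, -0.54 ± 0.50 for Mlkl, -0.32 ± 0.46 for Nlrp3, -0.32 ± 0.27 for Gsdmd, -0.25 ± 0.39 for Ripk3, -0.23 ± 0.16 for Il18, 0.32 ± 0.17 for Ripk1 and 1.40 ± 0.87 for Il1b, with edgeR adjusted p between 0.165 and 0.662. The median over the members was -0.32, against 0.01 over all genes. Of the 27 neuronal genes that set the inner retina scaling, 20 were themselves called lower with GSK in rd10 and 0 higher (median -0.32, libraries scaled to all genes). Inner retina scaling moved the median of all genes to 0.35 and turned Nlrp3, Gsdmd, Il18 and Ripk3 to values above 0 but below that median. Under the same scaling Ripk1 was called higher with GSK in rd10 (0.67, edgeR adjusted p = 0.00976).

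**Figure D2:**
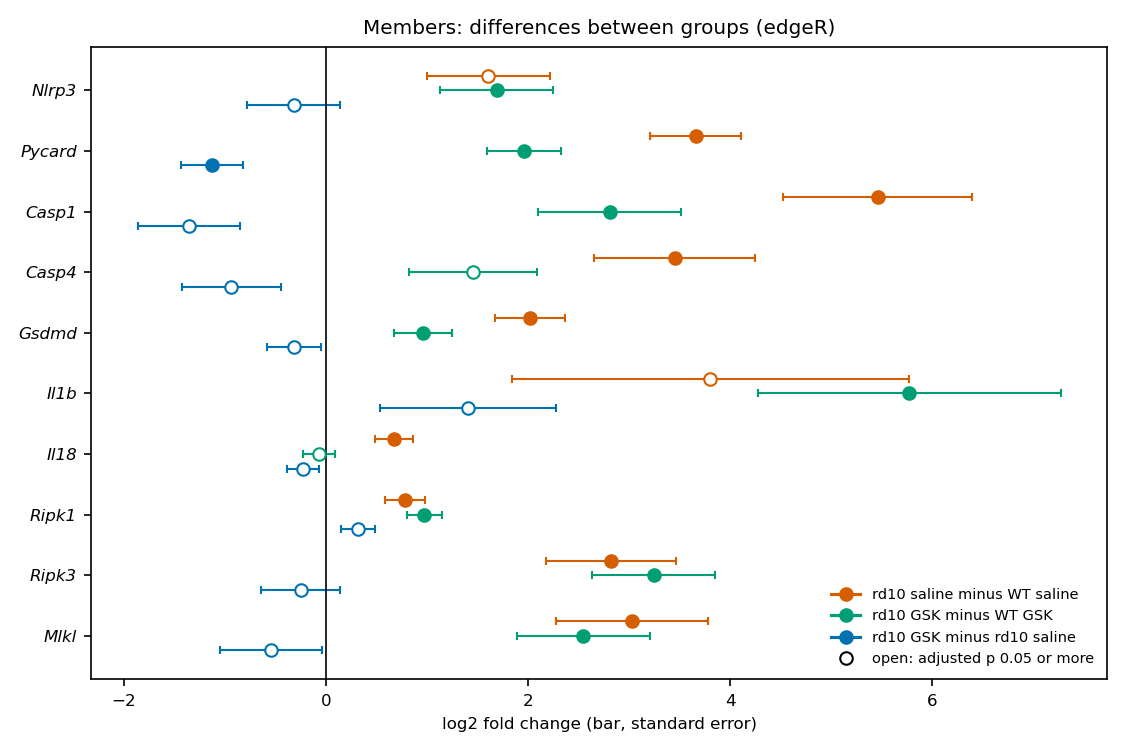
Log2 fold change of each member (x axis; y axis, the members; bar, standard error) in rd10 saline minus wild-type saline, rd10 GSK minus wild-type GSK and rd10 GSK minus rd10 saline, from edgeR, filled where the adjusted p was under 0.05. The rd10 against wild-type differences lie right of 0 except for Il18 under GSK, and Pycard is the only filled point among the differences between the rd10 groups; fitted values of Casp1, Casp4, Il1b and Ripk3 rest on 1 to 3 counts in a wild-type group.

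The rd10 GSK libraries were far from alike. Replicate 1 was the highest and replicate 3 the lowest of the group in 9 of 10 members, with Il18 the exception. How many of all genes had this order was not counted, so it is not shown to be particular to the members. As a percent of the rd10 saline mean, Casp1 was at 70.9, 38.2 and 6.55 in replicates 1, 2 and 3, and Pycard at 63.9, 47.2 and 25.2. Mlkl was at 99.6, 94.9 and 11.3 percent and Ripk1 at 153, 129 and 91.2. Il1b ran from 610 through 167 to 11.1 percent. Without rd10 GSK replicate 1, 5 members were called lower with GSK in rd10: Pycard, Casp1, Casp4 (-1.57, edgeR adjusted p = 0.0348), Gsdmd (-0.78, 0.00613) and Nlrp3 (-1.15, 0.0453). Without replicate 3, 2 were called lower (Pycard and Casp1) and 2 higher, Il1b (1.96, edgeR adjusted p = 0.0141) and Ripk1 (0.50, 0.0144). Neither left-out fit is a correction, since nothing in the labels sets these libraries apart.

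Summed markers of microglia and of monocytes differed between the libraries along with most members, and those of lymphocytes did so less. The 15 microglia markers summed to 98.5 to 108 CPM in the wild-type libraries, 589, 662 and 699 in rd10 saline, and 362, 255 and 170 in rd10 GSK, with 0 of 15 at 0 in any library. In rd10 GSK replicates 1, 2 and 3, P2ry12 (3.08, 4.15 and 6.62 CPM) and Siglech (1.89, 2.63 and 2.91) rose, while the other markers fell. Of the 15, 14 were called higher between the saline groups (rd10 minus wild type, median 3.30), where 21.5% of all genes were. Between the rd10 groups 12 were called lower (GSK minus saline, median -1.36), where 15.2% of all genes were. Relative to the microglia sum, Pycard was 0.639% to 0.746% in rd10 saline and 0.655% to 0.816% in rd10 GSK, ranges that overlap. Casp1 was 0.494% to 0.516% of the sum in rd10 saline, 0.639%, 0.489% and 0.126% in rd10 GSK and 0.0437% to 0.209% in wild type. Ripk1 behaved otherwise, at 5.00% to 6.73% in wild type, 1.30% to 1.64% in rd10 saline and 4.01% to 5.11% in rd10 GSK. Nlrp3, Gsdmd, Il18 and Ripk3 were also a higher percent of the sum in every rd10 GSK library than in every rd10 saline library. Gsdmd, for one, was 0.549% to 0.599% in rd10 saline and 0.852% to 1.28% in rd10 GSK. The sum itself was at 55.7, 39.2 and 26.1 percent of its rd10 saline mean in rd10 GSK replicates 1, 2 and 3. A gene of unchanged level therefore gains in this percent, and how many of all genes did so was not counted. Nlrp3 and Ripk3 also rest on low counts. The percents of Casp4, Il1b and Mlkl overlapped between the rd10 groups. The 10 markers of neutrophils and infiltrating monocytes summed to at most 1.54 CPM in wild type, 4.93, 6.14 and 11.6 in rd10 saline, and 13.4, 0.830 and 0.299 in rd10 GSK. Most of that came from the monocyte receptor gene Ccr2, with 291, 10 and 2 counts in rd10 GSK, while Elane was at 0 in all libraries and Ly6g and Mpo had at most 2 counts. The 8 lymphocyte markers, 3 of them tested, summed to 1.53 to 1.54 CPM in wild-type saline, 2.52 to 3.23 in wild-type GSK, 2.60 to 3.42 in rd10 saline and 2.61 to 2.97 in rd10 GSK, with 0 called between the rd10 groups. Müller glia markers were at 53.3, 59.8 and 72.4 percent and rod markers at 283, 445 and 536 percent of the rd10 saline mean in rd10 GSK replicates 1, 2 and 3. The part of these cell types in the members' differences was not tested.

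**Figure D3:**
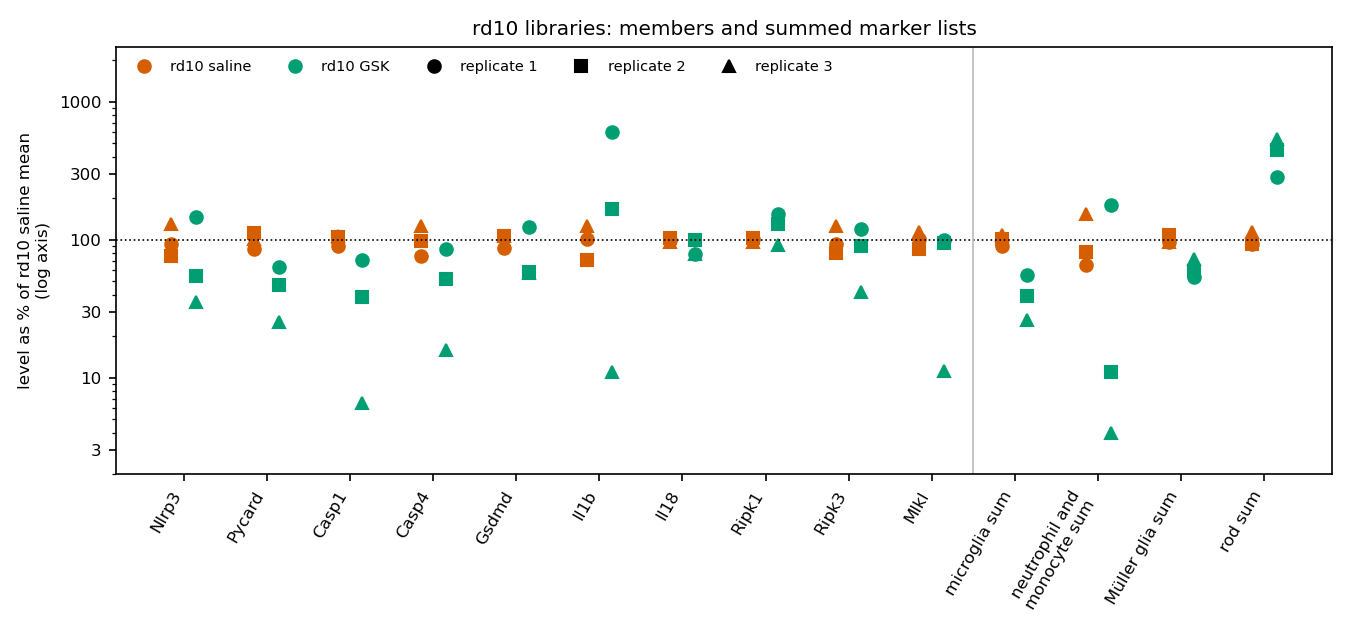
Level of each member and of 4 summed marker lists in the rd10 libraries, as a percent of the rd10 saline mean (y axis, log scale; x axis, genes and lists; colour, treatment; symbol, replicate). In rd10 GSK, replicate 1 is the highest and replicate 3 the lowest for 9 of 10 members and for the microglia sum, and the order is the opposite for the rod and Müller glia sums.

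In rd10 GSK against wild-type GSK, the largest ratio was that of Il1b, with 76 counts against 1 (ratio 78.3, exact counting interval 13.6 to 3133, edgeR adjusted p = 0.0197). Replicate 1 held 61 of the 76 counts, and without it the ratio was 24.3 (15 against 1 counts, interval 3.75 to 1025), while it was 49.8 without wild-type GSK replicate 2. Casp1 (2.81 ± 0.71, edgeR adjusted p = 0.0167), Mlkl (2.55 ± 0.66, 0.0177), Pycard (1.96 ± 0.37, 0.00367), Nlrp3 (1.69 ± 0.56, 0.0440), Ripk1 (0.97 ± 0.17, 0.00307) and Gsdmd (0.96 ± 0.28, 0.0279) were also higher. Casp4 (1.45 ± 0.63, edgeR adjusted p = 0.109) and Il18 (-0.07 ± 0.16, 0.785) were not called, and Casp4 passed without rd10 GSK replicate 3 (1.87, edgeR adjusted p = 0.0173). Only the calls of Pycard, Ripk1 and Ripk3 held under every alternative in which they were tested. Without wild-type GSK replicate 1, 2 or 3, 3 members were called each time. The other 5 then had edgeR adjusted p of 0.0516 to 0.141. Without rd10 GSK replicate 1 the calls of Nlrp3 (0.86, edgeR adjusted p = 0.269), Gsdmd (0.48, 0.110) and Mlkl (2.15, 0.0609) were lost.

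In wild-type retina GSK moved none of the 10 members past the threshold, where 0.532% of all genes were called, 0.444% higher and 0.0877% lower (edgeR 0, DESeq2 0, limma-voom 0). At an unadjusted edgeR p under 0.05 there was 1 member, Il18 (0.52 ± 0.19, edgeR adjusted p = 0.375). Gsdmd was higher in each of the 3 wild-type GSK libraries than in each wild-type saline library (0.74 ± 0.36, edgeR adjusted p = 0.597). Casp1 had 13 counts in wild-type GSK against 3 in wild-type saline, a ratio of 2.59 with an interval of 0.711 to 14.1, and Casp4 had 11 against 3 (2.19, 0.578 to 12.2). Il1b and Ripk3 had 1 to 3 counts in each wild-type group, so no fold is given. A p that misses the threshold does not show that these levels are equal, and this comparison has 2 animals on one side.

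The interaction asks whether the difference between GSK and saline itself differs between rd10 and wild type, and 0 of 10 members passed it, where 12.5% of all genes were called, 7.49% above 0 and 4.98% below (edgeR 0, DESeq2 0 of the 5 members with an adjusted p, limma-voom 0). At an unadjusted edgeR p under 0.05 there were 3: Pycard (-1.70 ± 0.60, edgeR adjusted p = 0.0879), Il18 (-0.75 ± 0.25, 0.0712) and Gsdmd (-1.06 ± 0.45, 0.152). Each had a higher mean with GSK in wild type and a lower mean with GSK in rd10. Without rd10 GSK replicate 1, Pycard (-2.03, edgeR adjusted p = 0.0226), Casp1 (-3.47, 0.0458) and Gsdmd (-1.53, 0.00337) passed. Il18 passed without wild-type saline replicate 2 (-1.07, edgeR adjusted p = 0.0347) and without both lens-bearing libraries (-1.19, 0.0331). The fall of Pycard in rd10 is therefore not shown to differ from its difference in wild type with all libraries in the fit.

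The other genes of the pathways were taken from 6 lists with 75 matched genes, 65 of which were tested. The lists were chosen with earlier results of these data known. They passed the same filter on low counts, so genes low in wild type could enter through rd10 libraries alone. The counts below therefore describe the lists without supporting a statement about them. Between the saline groups, 42 of the 65 were higher in rd10 and 5 were lower (median 1.43), where 21.5% of all genes were higher and 19.0% lower. Without wild-type saline replicate 1 or 2 these counts were 25 and 4, and 25 and 2. In rd10 GSK against rd10 saline 7 of the 65 were higher and 11 lower (median -0.17), where 17.6% of all genes were higher and 15.2% lower. The lower share was near that of all genes and the higher share was under it. Inner retina scaling turned the split to 19 higher and 5 lower. The counts were 5 higher and 23 lower without rd10 GSK replicate 1, 5 and 5 without replicate 2, and 4 and 5 without rd10 saline replicate 3. In wild-type GSK against wild-type saline 1 was higher (Nek7) and 0 lower, and in rd10 GSK against wild-type GSK 40 were higher and 4 lower, against 15.4% and 10.9% of all genes. Without wild-type GSK replicate 1 or 2, or rd10 GSK replicate 1, the last counts were 24 and 3, 23 and 4, and 26 and 3.

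Among 13 tested sensors and activators of inflammasomes, 9 were higher in rd10 saline and 1 lower, where 21.5% and 19.0% of all genes were. P2rx7, the ATP-gated channel whose opening triggers NLRP3, was at 0.814 and 1.19 CPM in wild-type saline, 4.85, 6.83 and 7.47 in rd10 saline, and 3.74, 3.04 and 2.18 in rd10 GSK. It rose between the saline groups (2.66 ± 0.30, edgeR adjusted p = 4.26e-05) and fell with GSK in rd10 (-1.09 ± 0.23, edgeR adjusted p = 0.00352). Casp12, a caspase gene next to Casp1 and Casp4, rose (2.61 ± 0.25, edgeR adjusted p = 1.71e-05) and fell with GSK (-1.41 ± 0.19, edgeR adjusted p = 0.000284) in the same way. For both genes these 2 calls held under every alternative setting. Their interactions also passed (P2rx7 -1.51 ± 0.39, edgeR adjusted p = 0.0257; Casp12 -1.51 ± 0.35, 0.0158), although neither passed without the lens-bearing libraries or without replicate 1 of wild-type saline, and that of P2rx7 also without 5 other single libraries. Txnip, a redox-linked binding partner of NLRP3, rose by 1.24 ± 0.16. The exception was Nek7, the kinase that binds NLRP3, which fell by 0.28 ± 0.07 (log2) in rd10 saline (edgeR adjusted p = 0.00787) and was higher with GSK in both genotypes, by 0.37 ± 0.07 in wild type and 0.36 ± 0.06 in rd10. The fall did not pass without replicate 2 of wild-type saline, nor the wild-type rise without any of 8 single libraries.

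Of 3 tested gasdermins and membrane rupture genes, 2 were higher in rd10 saline: Ninj1, whose protein ruptures the membrane in the last step of lytic death (1.06 ± 0.21, edgeR adjusted p = 0.00202), and Gsdma (1.43 ± 0.43, 0.0198, lost without either wild-type saline library). In the interleukin 1 family 9 of 12 were higher, where 21.5% of all genes were called higher between the saline groups. Il18bp, the secreted antagonist of interleukin 18, was higher by 2.30 ± 0.36 in rd10 saline (edgeR adjusted p = 0.000655) and fell with GSK in rd10, from 11.0, 13.2 and 16.9 CPM to 7.75, 7.06 and 3.12 (edgeR adjusted p = 0.00951), while Il18 itself differed less. Irak4 (2.20 ± 0.20) and Irak3 (2.13 ± 0.29), of the family named after the interleukin 1 receptor-associated kinases, rose with edgeR adjusted p = 9.16e-06 and 0.000173. The 7 listed interferon-induced GTPases, linked to the caspase-11 path, were all higher in rd10 saline, where 21.5% of all genes were. Among them were Gbp3 (3.83 ± 0.65, edgeR adjusted p = 0.00234), Irgm1 (3.78 ± 0.73) and Irgm2 (3.24 ± 0.65). With GSK in rd10 0 of the 7 were called, where 32.9% of all genes were. Irgm1 was at 54.7, 37.5 and 8.72 CPM in the rd10 GSK libraries, against 61.9 to 72.1 in rd10 saline, the same order of libraries as in the members.

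Of 10 tested death receptors and other triggers of necroptosis, 9 were higher in rd10 saline, where 21.5% of all genes were. In rd10 GSK against wild-type GSK 10 were higher, where 15.4% of all genes were. Between the rd10 groups 0 were called, where 32.9% of all genes were. Tnfrsf1a, the main receptor for tumour necrosis factor, was at 8.57 and 9.22 CPM in wild-type saline, 56.5, 62.3 and 49.0 in rd10 saline, and 63.9, 43.9 and 27.7 in rd10 GSK (2.65 ± 0.32 between the saline groups, edgeR adjusted p = 0.000291). Tlr4 (2.47 ± 0.38, edgeR adjusted p = 0.000385) and Fas (2.46 ± 0.47, 0.00150) rose likewise. The adaptors and brakes of necroptosis had no common direction. Of 20 tested, 6 were higher and 4 lower in rd10 saline, where 21.5% and 19.0% of all genes were. With GSK in rd10 5 were higher and 1 lower, where 17.6% and 15.2% of all genes were.

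**Figure D4:**
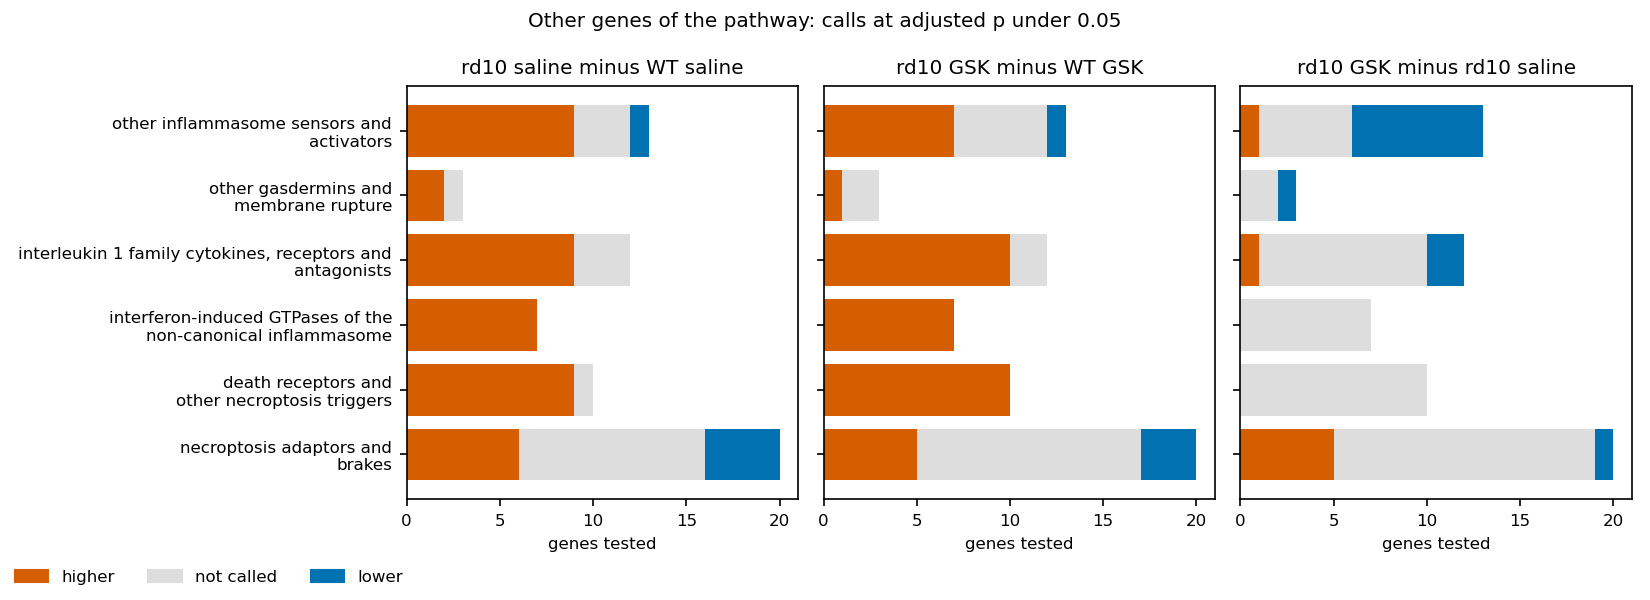
Number of tested genes called higher, called lower or not called (x axis) in each of the 6 other lists of the pathways (y axis) for 3 comparisons, at an edgeR adjusted p under 0.05. The list of GTPases holds 7 of 7 higher genes against wild type, where 21.5% (saline) and 15.4% (GSK) of all genes were higher. Between the rd10 groups it holds 0 calls, and 7 of 13 sensors and activators were called lower, against 15.2% of all genes. Inner retina scaling changes that split.

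The largest change in that last list was a fall. Tnfaip3 encodes A20, an enzyme that edits ubiquitin chains and restrains NF-kappaB, inflammasome and necroptosis signalling. It was at 338 and 336 CPM in wild-type saline, 333, 346 and 342 in wild-type GSK, 62.9, 58.0 and 75.2 in rd10 saline, and 148, 199 and 258 in rd10 GSK. Wild type, rd10 GSK and rd10 saline did not overlap, and the rd10 GSK libraries had the same order as the rod marker sum. Tnfaip3 fell by 2.37 ± 0.19 in rd10 saline (edgeR adjusted p = 2.08e-05) and rose by 1.62 ± 0.18 with GSK in rd10 (edgeR adjusted p = 0.000184), and both calls held under every alternative setting. Its interaction passed (1.61 ± 0.25, edgeR adjusted p = 0.00452) but not without the lens-bearing libraries. Xiap, an inhibitor of apoptosis that also restrains RIPK3, fell by 1.26 ± 0.12 (edgeR adjusted p = 2.09e-05) and rose by 0.40 ± 0.11 with GSK (edgeR adjusted p = 0.0178, lost without rd10 GSK replicate 3). Birc3, of the same family, rose by 2.23 ± 0.54 in rd10 saline (edgeR adjusted p = 0.00680), a call lost without either wild-type saline library. Birc2 (-0.25 ± 0.07, edgeR adjusted p = 0.0160) and Ikbkg (-0.20 ± 0.07, 0.0369) fell slightly. Neither passed without replicate 2 of wild-type saline, and Ikbkg also missed the threshold without wild-type saline 1, wild-type GSK 2 or rd10 saline 2.

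The genes whose pattern over the 11 libraries was most like that of each member were listed among 14546 genes by Pearson's r of log2(CPM + 0.5), as a description with no test. All such values contain the gap between wild type and rd10, so they are high for many genes. Casp1 was most like Oas1a (0.995), an interferon-induced enzyme, and Ptprc (0.994), the pan-leukocyte marker CD45, and Casp4 was most like Ptprc (0.982) and Myo1f (0.981). Pycard was most like 2700081O15Rik (0.994) and Ncapd2 (0.991), a condensin subunit, and Nlrp3 like Erlin1 (0.971) and Cttnbp2nl (0.970). Gsdmd was most like Pxn (0.985), which encodes the focal adhesion protein paxillin, and Plcb3 (0.982), and Ripk1 like Spidr (0.985) and Muc1 (0.984). Mlkl was most like Gbp7 (0.989) and Slfn9 (0.987), and Ripk3 like Helz2 and Gbp2 (both 0.988). Il1b was most like Ccl2 (0.979), a chemokine that attracts monocytes, and Clcf1 (0.976).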

How the data were processed

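Retinal polyA RNA was sequenced with a stranded kit, per the labels' protocols. The deposited values are whole-number counts per Ensembl gene, which the authors made with HISAT2 2.1.0 and HTSeq, per the submitters' processing notes; the sources used here give neither annotation nor strand setting. Symbols were found for 32919 of 37991 identifiers. The other 5072 held 0.627% of counts and stayed in the fit.

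From these counts, edgeR 4.0.16 (R 4.3.3) fitted 1 coefficient per group over all 11 libraries. Genes entered with at least 10 counts, scaled to depth (0.433 CPM), in 2 libraries and 15 in all, which left 17099. TMM scaling, the robust quasi-likelihood test and Benjamini-Hochberg adjustment over these genes were used, with calls at 0.05. SE is the log2 fold change divided by the square root of F. A group with 1 to 3 counts is given as a count ratio with its exact 95% interval. Per-length levels use merged GENCODE M21 exons. Inner retina scaling set libraries equal on 27 neuronal genes. The other alternatives were RLE scaling, DESeq2 1.42.0, limma-voom (3.58.1), other filters, only the compared groups, libraries left out and the replicate number as a block.

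Members and lists were chosen with earlier results of these data known. Named genes were all members, up to 3 genes per list with the smallest p between the saline groups, genes called against their list's majority, and the 2 most similar genes per member (the result for Il18 is not reported here). Procedures were tested on simulated data.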

Additional observations from a re-analysis of the deposited data

How the results depend on the processing

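Of 1858 values of 95 results under 20 alternatives, 1694 kept direction and side of the threshold, 119 lost and 23 gained a call, and 22 changed sign.

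Members called between the saline groups numbered 8, and 5 to 10 with 1 library left out. Between the rd10 groups the number was 1; it was 2 with limma-voom (Pycard and Casp1), 2 with the replicate block, 0 without the lens-bearing libraries and 1 to 5 with 1 library left out. For the interaction it was 0, then 1 with the replicate block, 1 without the lens-bearing libraries and 0 to 3 with 1 library left out. For rd10 GSK against wild-type GSK it was 8, then 3 with limma-voom, 5 of 6 tested under the stricter filter, 2 of 4 tested in the compared groups only, 4 without the lens-bearing libraries and 3 to 9 with 1 library left out. For GSK in wild type it was 0 throughout.

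Signs changed as follows (log2). Inner retina scaling gave 0.0351 for Nlrp3, 0.0425 for Gsdmd, 0.118 for Il18 and 0.0959 for Ripk3 between the rd10 groups, 0.124 for Il18 in rd10 GSK against wild-type GSK, and 0.0125 for Mlkl in wild type. Mlkl in wild type was also 0.0109 with limma-voom, 0.590 without the lens-bearing libraries and 0.127 with the replicate block, and Nlrp3 in the interaction -0.0707 with limma-voom. With 1 library left out, the ranges were -1.15 to 0.0310 for Nlrp3, -0.201 to 1.96 for Il1b and -0.618 to 0.0680 for Ripk3 between the rd10 groups; -0.0185 to 0.289 for Ripk1 and -0.482 to 0.588 for Mlkl in wild type; -0.744 to 0.475 for Nlrp3 and -1.13 to 0.0200 for Mlkl in the interaction; and -0.194 to 0.0180 for Il18 in rd10 GSK against wild-type GSK. The cause was not tested.

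Of 15 pairs of same-numbered libraries, 5 had deviations correlated above 0.1 (range -0.198 to 0.426), against 5 of 30 other pairs. The 5 lay between wild-type GSK and rd10 saline (3) and wild-type saline and rd10 GSK (2), and none between groups set directly against each other here. For those comparisons the numbers are not taken as pairs. The interaction uses all groups, so this check cannot decide whether the numbers matter for it, and its main fit also leaves them out. With the replicate block Casp1 between the rd10 groups (-1.56, edgeR adjusted p = 0.0455) and Il18 in the interaction (-0.82, 0.0331) passed. Nlrp3 (1.64, 0.0659), Il18bp (0.93, 0.0724) and Irgm1 (2.11, 0.0688) in rd10 GSK against wild-type GSK, P2rx7 in the interaction (-1.49, 0.0528) and Nek7 in wild type (0.36, 0.133) no longer did. Counts over all genes moved too: 6919 between the saline groups became 4081 without the lens-bearing libraries and 4435 or 4441 without wild-type saline 1 or 2, 5621 between the rd10 groups became 9770 with inner retina scaling and 3588 with the compared groups only, 91 in wild type ranged from 12 to 916, 2131 for the interaction ranged from 524 to 5313, and 4484 for rd10 GSK against wild-type GSK ranged from 2213 to 6776. With inner retina scaling the share of calls that were higher went from 53.0% to 40.5% between the saline groups, 60.1% to 95.4% for the interaction and 58.5% to 92.2% for rd10 GSK against wild-type GSK. Low counts limit Il1b, Ripk3, Casp4, Casp1, Nlrp3 and Mlkl in wild type, where 1 or 2 animals decide a value.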
